A study of Mus musculus with 9 samples.

Results

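The family of miR-103 and miR-107 was examined in small RNA-seq counts from the quadriceps muscle of mice that lack a Muscleblind-like (MBNL) splicing factor. Its members were chosen by miRNA name and host gene, as the mature miRNAs cut from hairpins within introns of the pantothenate kinase (Pank) genes, with earlier results of these counts known. They were 3 of the 1966 mature miRNAs in the count table, namely mmu-miR-107-3p, mmu-miR-107-5p and mmu-miR-103-3p. mmu-miR-107-3p had counts in 9 of 9 libraries, with 1215 reads in all. mmu-miR-103-3p also had counts in 9 of 9 libraries, with 71700 reads. mmu-miR-107-5p had counts in 3 of 9 libraries, with 4 reads in all. Since the members were picked with these counts in view, their levels and fold changes are given as a description, and their calls support nothing beyond the values themselves.

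The libraries came from 3 groups of 3 mice, labelled as 90 days of age, where the paper states their age in weeks and somewhat lower. WT mice were C57BL/6J with the genotype Mbnl1+/+ Mbnl2+/+. Mbnl1KO mice were C57BL/6J with the genotype Mbnl1ΔE3/ΔE3 Mbnl2+/+, and so kept both copies of Mbnl2. Mbnl2KO mice were labelled B6.C-Tg(CMV-cre)1Cgn/J, a strain in which the CMV promoter drives Cre broadly, and were Mbnl1+/+. The Mbnl2 alleles were labelled ΔE2/ΔE2 in replicate 1, ΔE2/ΔE3 in replicate 2 and ΔE2/ΔE4 in replicate 3. The paper names the line as ΔE2/ΔE2 alone, and the labels may be at fault, so that these 3 mice may have had the same alleles. The strain label therefore differs between Mbnl2KO and the other groups, and by the labels strain and knockout cannot be told apart, although the paper describes the WT mice as littermates. The study asked which miRNAs of skeletal muscle depend on MBNL proteins. The knockouts could not be checked on their target genes, because the table holds miRNAs only.

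Pantothenate kinases catalyse the committed step by which vitamin B5 is turned into coenzyme A, and each of Pank1, Pank2 and Pank3 carries a hairpin of this family in an intron. The mature miRNAs are loaded into Argonaute and repress mRNAs that match their seed, bases 2 to 8. In mouse liver and fat, miR-103 and miR-107 are known as negative regulators of insulin sensitivity, acting in part through caveolin-1. MBNL proteins bind RNA through zinc fingers and are sequestered by the expanded repeats of myotonic dystrophy, a disease in which muscle is also insulin resistant.

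The sequences are shown because the members share a seed and can be told apart in sequencing only near the 3′ end. They were read from RefSeq on GRCm38.p6, are written 5′ to 3′, and carry the seed in capitals.
miR-107-3p: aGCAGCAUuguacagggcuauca
miR-103-3p: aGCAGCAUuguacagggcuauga
miR-107-5p: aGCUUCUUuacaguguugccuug
miR-103-1-5p: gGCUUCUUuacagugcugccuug
miR-103-2-5p: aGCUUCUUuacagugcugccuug
Among 1679 mature mouse miRNAs in RefSeq, miR-107-3p and miR-103-3p were the only 2 with the seed GCAGCAU. Over 23 bases they differed at 1 position, G22C, counted from the 5′ end with the base of miR-103-3p first. The leading 21 bases were shared, so that a read that ended at or before base 21 held no base that told them apart. The 5p strand of Mir107 likewise differed from that of Mir103-2 by C16U. Mir103-1 and Mir103-2 give the same 3p sequence, so the count of miR-103-3p is a sum over both loci.

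The hairpins are shown because they place both strands and the flanking bases that the counting could use. Mature strands are in capitals.
Mir107: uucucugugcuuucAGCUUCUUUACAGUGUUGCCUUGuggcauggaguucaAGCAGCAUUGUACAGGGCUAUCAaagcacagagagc
Mir103-1: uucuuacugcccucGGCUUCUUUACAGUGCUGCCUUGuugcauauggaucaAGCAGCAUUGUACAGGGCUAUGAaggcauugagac
Mir103-2: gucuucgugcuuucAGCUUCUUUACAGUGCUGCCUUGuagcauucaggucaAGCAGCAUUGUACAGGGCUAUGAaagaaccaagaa
On GRCm38.p6, Mir107 lies at chr19:34820687-34820773 on the minus strand. Mir103-1 lies at chr11:35782396-35782481 and Mir103-2 at chr2:131288052-131288137, both on the plus strand. In the GENCODE annotation, which is on GRCm39, Mir107 fell within intron 5 of 6 of Pank1, Mir103-1 within intron 5 of 6 of Pank3, and Mir103-2 within intron 5 of 6 of Pank2. Each hairpin was on the strand of its host, and 0 exons of any transcript overlapped it. In all 3 hairpins the bases just before the 3p strand were ca, which gave no further base to separate the loci on that side. The MBNL binding motif, spelled as UGCU, as UGCC, as CGCU or as CGCC, was searched on the RNA strand with overlaps counted. It occurred 2 times in Mir107, 3 times in Mir103-1 and 3 times in Mir103-2, with 0 in the terminal loops. Mir107 is 87 bases long and the Mir103 hairpins are 86. Of 26 RefSeq mouse hairpins of 86 or 87 bases, these 3 included, 80.8% held at least 1 such match, with a median of 1. At least 3 matches were held by 15.4%, with Mir103-1 and Mir103-2 among them.

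The 3 WT libraries held between 4761271 and 6147836 counts, those of Mbnl1KO between 5269526 and 6277018, and those of Mbnl2KO between 5479314 and 5954905. A muscle miRNA, miR-486a-5p, was listed at 0 throughout, although the paper names miR-486 among the most deregulated in Mbnl1KO muscle. A listed 0 therefore need not mean absence. Another single muscle miRNA, miR-1a-3p, made up between 61.4% and 73.7% of a library. The TMM factors, which correct for such composition, ranged from 0.920 to 0.969 for WT, from 1.04 to 1.27 for Mbnl1KO and from 0.826 to 1.07 for Mbnl2KO. Levels are given as CPM, the count relative to the library total times that factor. In whole muscle, fewer cells of a type and less RNA per cell cannot be told apart.

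miR-107-3p was higher in each Mbnl1KO library than in each WT and Mbnl2KO library. Its raw counts were 75, 68 and 68 in WT, 394, 216 and 187 in Mbnl1KO, and 80, 60 and 67 in Mbnl2KO. As normalised CPM, WT replicates 1 to 3 had levels of 13.3, 11.5 and 14.7, with a mean of 13.2 ± 1.65 (SD, n = 3). The Mbnl1KO libraries had 52.8, 39.4 and 28.3, with a mean of 40.2 ± 12.3 (SD, n = 3). The Mbnl2KO libraries had 14.2, 9.86 and 14.8, with a mean of 13.0 ± 2.70 (SD, n = 3). The lowest Mbnl1KO library, replicate 3, lay above all 6 libraries of the other groups, and Mbnl1KO also had the widest spread. In the order of group means, Mbnl1KO stood first, while WT and Mbnl2KO were closer to each other than the SD of either. By rank of count, miR-107-3p stood between 169 and 180 in WT, between 119 and 147 in Mbnl1KO, and between 164 and 190 in Mbnl2KO.

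miR-103-3p, the abundant member with the same seed, showed no such separation of the groups. Its raw counts were 6868, 8456 and 7941 in WT, 13767, 6795 and 8012 in Mbnl1KO, and 7098, 6897 and 5866 in Mbnl2KO. Normalised CPM were 1215, 1424 and 1722 in WT, with a mean of 1454 ± 255 (SD, n = 3). They were 1846, 1240 and 1211 in Mbnl1KO, with a mean of 1432 ± 359 (SD, n = 3), and 1260, 1133 and 1296 in Mbnl2KO, with a mean of 1230 ± 85.6 (SD, n = 3). The values of the 3 groups overlapped, and Mbnl1KO replicate 1 was the highest of the 9 libraries. That library was also the highest for miR-107-3p. The order of the group means was WT, Mbnl1KO and Mbnl2KO, and no neighbours in it differed beyond their spread. miR-103-3p ranked 26 to 34 by count in every library.

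**Figure D1:**
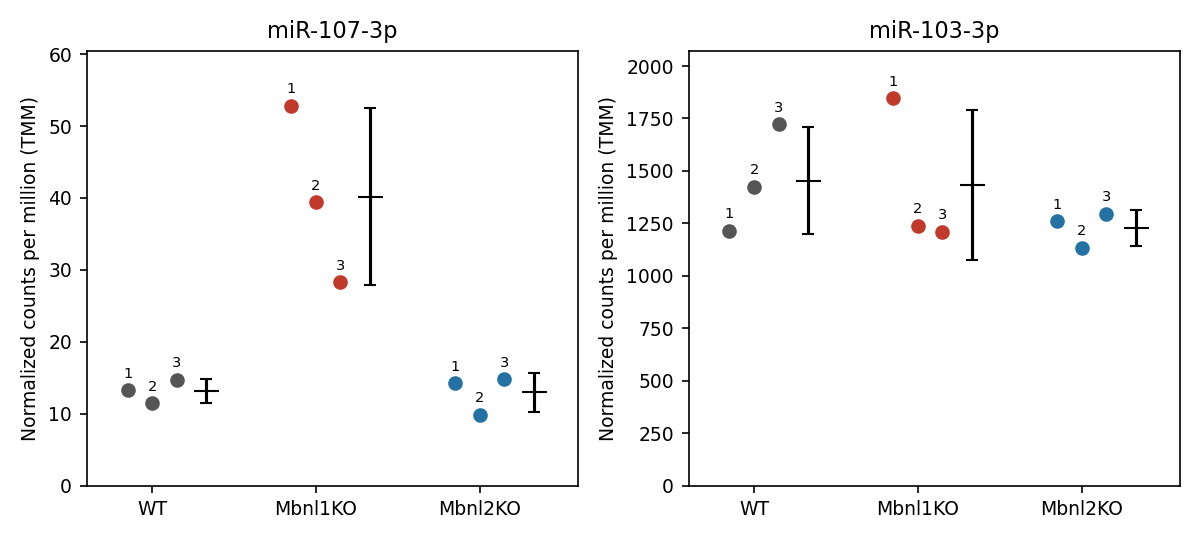
Normalised CPM of miR-107-3p and of miR-103-3p in each library (points, numbered by replicate) of WT, Mbnl1KO and Mbnl2KO, with the group mean and SD (bars). The 3 Mbnl1KO points for miR-107-3p lie at 28.3 or above and all other points at 14.8 or below, whereas the groups overlap for miR-103-3p.

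The share of miR-107-3p within the pair, which does not depend on how libraries are scaled, was also higher in each Mbnl1KO library than in each other library. As a percentage of the counts of miR-107-3p and miR-103-3p together, with Wilson 95% intervals, miR-107-3p made up 1.08% (0.863 to 1.35), 0.798% (0.630 to 1.01) and 0.849% (0.670 to 1.07) in WT. It made up 2.78% (2.52 to 3.07), 3.08% (2.70 to 3.51) and 2.28% (1.98 to 2.63) in Mbnl1KO. In Mbnl2KO it made up 1.11% (0.896 to 1.38), 0.862% (0.671 to 1.11) and 1.13% (0.890 to 1.43). The intervals of all Mbnl1KO libraries lay above those of all other libraries, while those of WT and Mbnl2KO overlapped. These intervals cover counting error only.

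Group means of the share were 0.909% ± 0.150 in WT, 2.71% ± 0.404 in Mbnl1KO and 1.04% ± 0.150 in Mbnl2KO (SD, n = 3 each). miR-103-3p was thus counted 110-fold more than miR-107-3p in WT, 36.1-fold more in Mbnl1KO and 96.3-fold more in Mbnl2KO, as group means of the ratio on the log scale. The difference in the log2 ratio of miR-107-3p to miR-103-3p was 1.61 between Mbnl1KO and WT. It was 1.41 between Mbnl1KO and Mbnl2KO and 0.19 between Mbnl2KO and WT. Within the seed family, the excess over WT in Mbnl1KO amounted to 1.81 percentage points, and the summed level of the members still overlapped between the groups, from 1228 to 1737 CPM (WT), from 1239 to 1899 (Mbnl1KO) and from 1143 to 1311 (Mbnl2KO). How the deposited counts divided reads too short to reach base 22 is not given in the sources used here, and its part in the share was not tested.

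**Figure D2:**
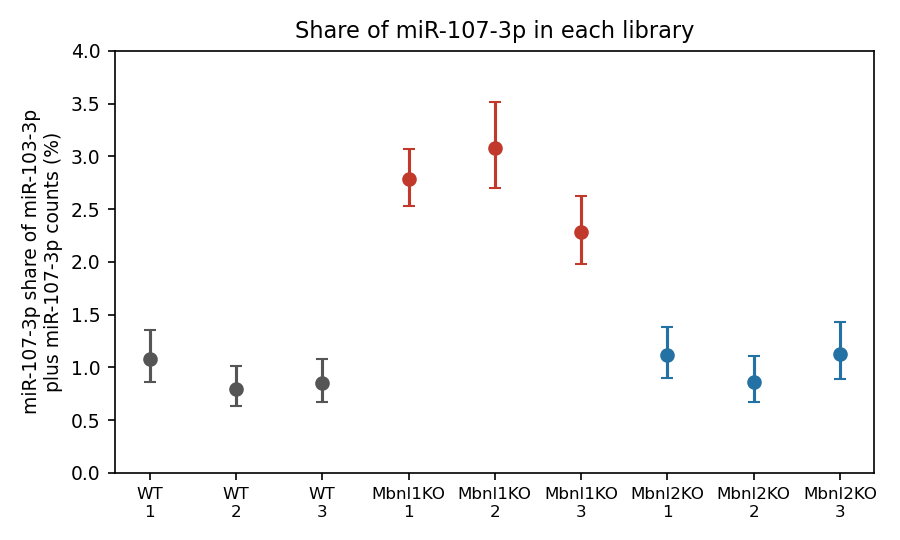
Share of miR-107-3p in the counts of miR-107-3p and miR-103-3p together (percent) for each library, with Wilson 95% intervals (vertical lines). The Mbnl1KO libraries lie between 2.28% and 3.08%, and the WT and Mbnl2KO libraries between 0.798% and 1.13%.

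Each pair of groups was then fitted over all miRNAs with a mean normalised count above 10 with edgeR, and a miRNA was called where its Benjamini-Hochberg adjusted p was under 0.05. The comparisons share libraries, so that their values stand side by side and are not independent. Between Mbnl1KO and WT, 33.4% of 317 tested miRNAs were called, 18.9% as higher and 14.5% as lower in Mbnl1KO, and 43.8% had groups that did not overlap. Of the 3 members, 2 were tested and 1 was called. miR-107-3p was 2.93-fold higher in Mbnl1KO, a log2 fold change of 1.55 with a standard error of 0.212 and a 95% interval of 1.13 to 1.97. It stood at place 24 of 317 by log2 fold change. miR-103-3p had a log2 fold change of -0.08 with a standard error of 0.150 and a 95% interval of -0.38 to 0.21, and was not called. Without Mbnl1KO replicate 1, the library with the highest levels of both, the log2 fold change of miR-107-3p was 1.30.

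Between Mbnl2KO and WT, 5.8% of 293 tested miRNAs were called, 3.41% as higher and 2.39% as lower in Mbnl2KO, and 23.2% had groups that did not overlap. Neither tested member was called or free of overlap. miR-107-3p had a log2 fold change of -0.03 with a standard error of 0.243 and a 95% interval of -0.54 to 0.48. miR-103-3p had a log2 fold change of -0.25 with a standard error of 0.140 and a 95% interval of -0.54 to 0.05. Both intervals include 0. At an unadjusted p under 0.05 the count was 0 of 2, and DESeq2 also called 0 of 2.

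The direct comparison of the knockouts placed Mbnl1KO above Mbnl2KO for miR-107-3p. Here 26.9% of 309 tested miRNAs were called, 16.5% as higher and 10.4% as lower in Mbnl1KO, and 42.7% had groups that did not overlap. miR-107-3p was 3.05-fold higher in Mbnl1KO than in Mbnl2KO and was called, with a log2 fold change of 1.61, a standard error of 0.243 and a 95% interval of 1.11 to 2.11. It stood at place 16 of 309 by log2 fold change. miR-103-3p had a log2 fold change of 0.19 with a standard error of 0.158 and a 95% interval of -0.14 to 0.52, and was not called. With library totals in place of TMM, miR-103-3p was called at 0.50, as the median of all miRNAs moved from 0.09 to 0.36.

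**Figure D3:**
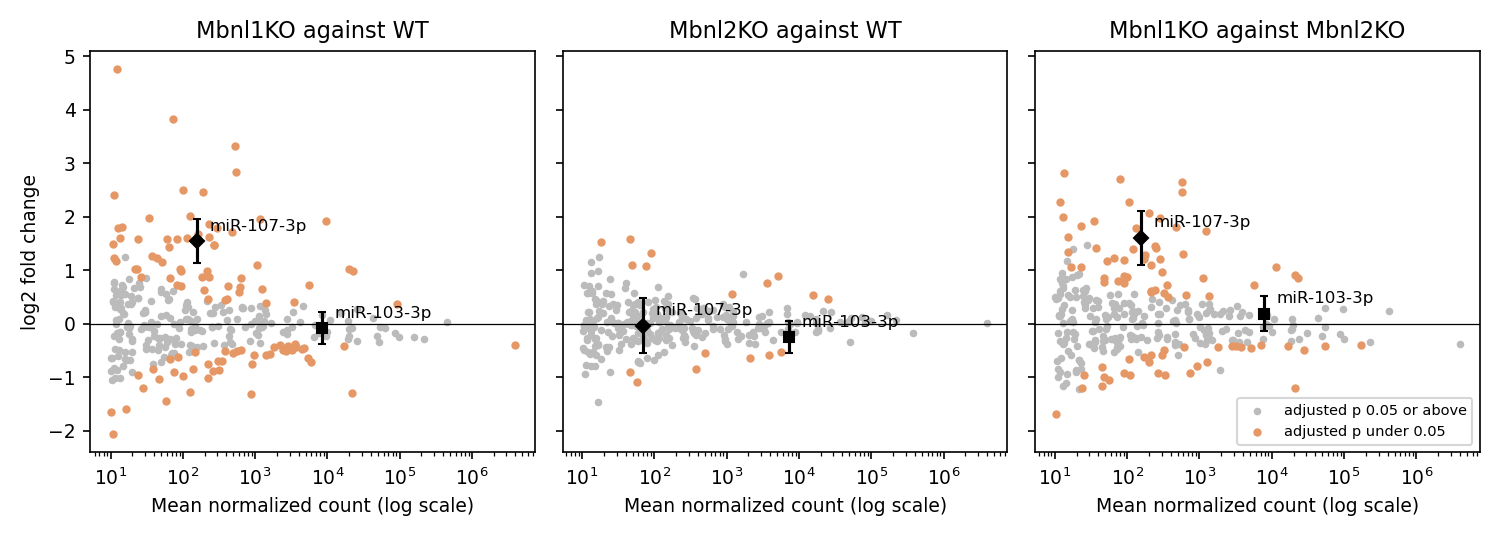
Log2 fold change against mean normalised count (log axis) for every tested miRNA in the 3 comparisons, with miR-107-3p and miR-103-3p marked with their 95% intervals. miR-107-3p lies at 1.55 and 1.61 in the comparisons of Mbnl1KO and at -0.03 between Mbnl2KO and WT, and the intervals of miR-103-3p include 0 in all 3.

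The opposite strands of the hairpins were close to the limit of detection. miR-107-5p, the strand cut from the other arm of Mir107, had 1, 2 and 1 reads in the Mbnl1KO libraries and 0 in each WT and Mbnl2KO library. The 4 reads of Mbnl1KO came from 17442649 counts and have a Poisson 95% interval of 1.09 to 10.2 reads. The same interval for the 0 reads among the 17044904 counts of WT reaches up to 3.69 reads. Both cover counting error only and take the reads of 3 libraries as independent, and with so few reads no difference was tested. miR-103-2-5p had 5, 2 and 1 reads in WT, 0, 2 and 2 in Mbnl1KO, and 1, 3 and 0 in Mbnl2KO. miR-103-1-5p had 2 reads in Mbnl1KO replicate 3, 1 read in Mbnl2KO replicate 3 and 0 elsewhere. The 3p strand thus held nearly all counts of Mir107, and nearly all of the Mir103 hairpins together, since the reads of miR-103-3p cannot be assigned to either, and none of the 5p strands reached the fits.

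The group named for miR-15 and miR-107 holds further miRNAs with AGCAGC near the 5′ end, which is why many of their known targets are shared. The letters are in capitals in these RefSeq sequences and start at base 2, against base 1 in miR-103-3p and miR-107-3p.
miR-15a-5p: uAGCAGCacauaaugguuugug
miR-15b-5p: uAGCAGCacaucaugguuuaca
miR-16-5p: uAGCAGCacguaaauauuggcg
miR-195a-5p: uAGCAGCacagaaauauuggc
miR-322-5p: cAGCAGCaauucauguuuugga
miR-497a-5p: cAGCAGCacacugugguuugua
miR-503-5p: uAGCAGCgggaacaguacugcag
These 7 were listed as established members of the group, and all were tested. A search of the leading 9 bases in RefSeq also found AGCAGC in miR-195b, miR-1906, miR-6340, miR-6342, miR-6353 and miR-6419, which had 0 or 1 counts over all libraries and were left out. Between Mbnl1KO and WT, 1 rose, 0 fell and 6 were not called, 3 reached an unadjusted p under 0.05, and DESeq2 also called 1, with a median log2 fold change of 0.32 against -0.01 over all tested miRNAs, of which 18.9% rose and 14.5% fell. The one that rose was miR-322-5p, a miRNA of the X chromosome made together with miR-503 and known to favour muscle differentiation. Its levels were 70.6, 76.3 and 88.9 CPM in WT, 137.6, 134.4 and 126.0 in Mbnl1KO, and 102.3, 81.0 and 85.1 in Mbnl2KO. All Mbnl1KO libraries lay above the others. Its log2 fold change was 0.69 with a standard error of 0.169 (edgeR, adjusted p = 0.000306). The partner miR-503-5p had a log2 fold change of 0.32 (edgeR, adjusted p = 0.273).

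The remaining miRNAs of the group moved less than miR-107-3p in value. miR-195a-5p and miR-497a-5p, made from a shared precursor transcript, had log2 fold changes of 0.34 and 0.35 between Mbnl1KO and WT, neither called. Their groups did not overlap, as for 43.8% of all tested miRNAs. miR-16-5p, the most abundant of the group at 1660 to 2068 CPM, was at 0.07. Between Mbnl2KO and WT, 0 of 7 were called by edgeR or by DESeq2, and 1 had an unadjusted p under 0.05, with a median of 0.10 against 0.01 over all, of which edgeR called 5.8%. Between the knockouts, miR-322-5p was again higher in Mbnl1KO, by 0.53 on the log2 scale (edgeR, adjusted p = 0.0204), and the median was 0.23 against 0.09. That call was lost when Mbnl1KO replicate 1 (0.49), Mbnl2KO replicate 2 (0.46) or Mbnl2KO replicate 3 (0.45) was left out.

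**Figure D4:**
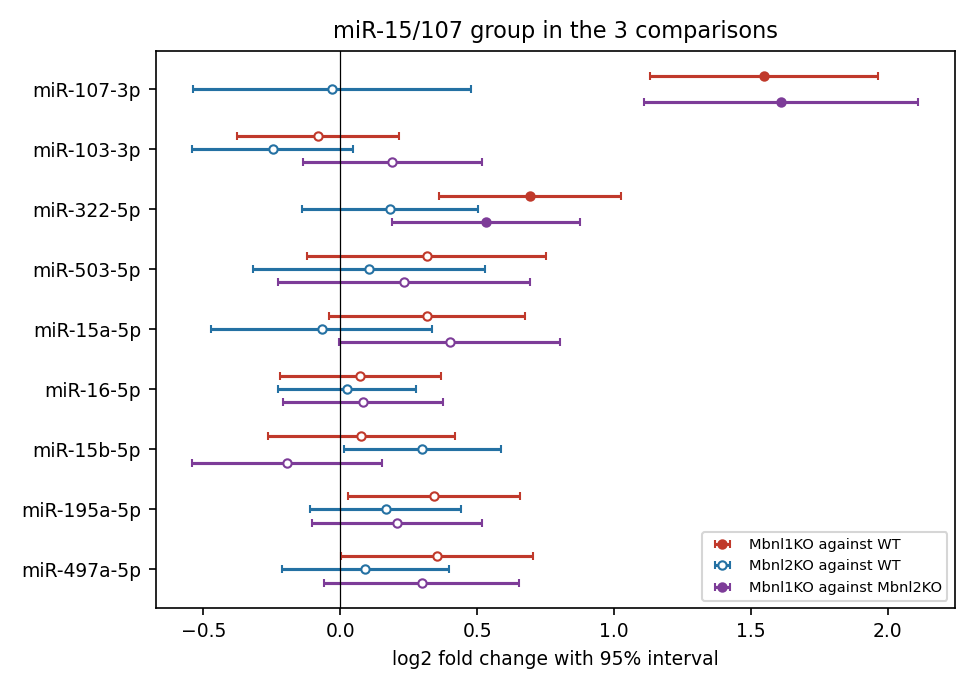
Log2 fold changes with 95% intervals of miR-107-3p, miR-103-3p and the 7 listed miRNAs that share AGCAGC in the 3 comparisons, where filled symbols mark an adjusted p under 0.05 and open symbols the rest. Filled symbols occur for miR-107-3p and miR-322-5p in the comparisons of Mbnl1KO.

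A list of 24 miRNAs linked to insulin signalling or glucose uptake was read beside the family. miR-33-5p, miR-126a-3p and miR-802-5p were listed at 0, and 19 were tested. Between Mbnl1KO and WT, 0 rose, 2 fell and 17 were not called, against 1 and 4 at an unadjusted p under 0.05 and 0 and 3 by DESeq2, with a median of -0.22 against -0.01 over all tested miRNAs, of which 18.9% rose and 14.5% fell. miR-223-3p, a miRNA of myeloid cells, had levels of 64.4, 55.4 and 82.0 CPM in WT and of 44.5, 33.9 and 36.7 in Mbnl1KO. It fell by 0.87 on the log2 scale (edgeR, adjusted p = 1.71e-05). miR-194-5p had levels of 73.4, 80.2 and 72.4 CPM in WT and of 54.4, 63.8 and 48.2 in Mbnl1KO. It fell by 0.51 on the log2 scale (edgeR, adjusted p = 0.0145). The groups did not overlap for either. The call of miR-194-5p was lost with library totals, at -0.21, and without WT replicate 1 (-0.49), WT replicate 2 (-0.47) or Mbnl1KO replicate 3 (-0.40).

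Between Mbnl2KO and WT, 1 of the 19 rose and 0 fell, with a median of -0.02 against 0.01 over all tested miRNAs, of which 3.41% rose and 2.39% fell. The one that rose was miR-143-3p, a miRNA of smooth muscle that is also known to dampen insulin signalling. It had 4124, 3647 and 3815 CPM in WT and 5065, 5220 and 5870 in Mbnl2KO. It rose by 0.47 on the log2 scale (edgeR, adjusted p = 0.0274), a call that was lost in 5 of 14 alternatives, among them the fits without WT replicate 2 (0.44), WT replicate 3 (0.47) and Mbnl2KO replicate 3 (0.42). Between the knockouts, 0 were higher and 4 lower in Mbnl1KO by edgeR, 5 and 5 at an unadjusted p under 0.05, and 0 and 5 by DESeq2, with a median of -0.12 against 0.09. Over all tested miRNAs, edgeR called 16.5% as higher and 10.4% as lower. miR-223-3p fell by 0.96 (edgeR, adjusted p = 0.000263) and let-7c-5p, of a family that represses the insulin receptor pathway, by 0.49 (edgeR, adjusted p = 0.0112). let-7b-5p differed by -0.40 (edgeR, adjusted p = 0.0387) and miR-26a-5p by -0.39 (edgeR, adjusted p = 0.0449). Of these 4, miR-223-3p was called in 14 of 14 alternatives, let-7c-5p in 13, miR-26a-5p in 7 and let-7b-5p in 6. With a library left out, miR-26a-5p was lost without replicate 1 or 2 of Mbnl1KO (-0.42, -0.32) and replicate 1 or 3 of Mbnl2KO (-0.39, -0.43). let-7b-5p was lost without replicate 2 or 3 of Mbnl1KO (-0.29, -0.43) and replicate 3 of Mbnl2KO (-0.45).

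miRNAs in introns of other metabolic genes gave a pair of hosts to set beside the Pank genes. miR-33-5p and miR-33-3p, from an intron of Srebf2, a regulator of cholesterol synthesis, were listed at 0. Both strands of miR-378a, from an intron of Ppargc1b, a coactivator of mitochondrial genes, were called between Mbnl1KO and WT, in opposite directions. miR-378a-3p had 4452, 5179 and 5890 CPM in WT, 2328, 1706 and 2576 in Mbnl1KO, and 4941, 5156 and 4765 in Mbnl2KO. Its log2 fold change was -1.30 with a standard error of 0.153 (edgeR, adjusted p = 2.01e-15). miR-378a-5p had 199, 208 and 200.4 CPM in WT and 275, 243 and 316 in Mbnl1KO, with a log2 fold change of 0.39 (edgeR, adjusted p = 0.0456), which was called in 5 of 14 alternatives and, with a library left out, only without Mbnl1KO replicate 2 (0.47). Between Mbnl2KO and WT their log2 fold changes were -0.07 and -0.10, neither called. Between the knockouts they were -1.20 (edgeR, adjusted p = 5.65e-07) and 0.52 (edgeR, adjusted p = 0.0133), the latter called in 12 of 14 alternatives and lost without Mbnl1KO replicate 3 (0.41) or Mbnl2KO replicate 3 (0.47).

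Markers of other cells were read beside these values. Over all tested miRNAs, edgeR called 18.9% as higher and 14.5% as lower between Mbnl1KO and WT, and 3.41% and 2.39% between Mbnl2KO and WT. Between the knockouts it called 16.5% as higher and 10.4% as lower in Mbnl1KO. Of 6 miRNAs of blood and immune cells, miR-142a-3p was listed at 0 and 4 were tested. Between Mbnl1KO and WT, 0 of the 4 rose and 2 fell, miR-223-3p and miR-142a-5p, the latter by 0.84 on the log2 scale (edgeR, adjusted p = 0.0281). miR-150-5p and miR-451a were not called, with log2 fold changes of -0.001 and 0.08. DESeq2 called miR-223-3p alone, with an adjusted p of 0.0832 for miR-142a-5p. Between Mbnl2KO and WT, 0 of the 4 were called by edgeR or DESeq2, and 1 had an unadjusted p under 0.05, miR-150-5p, higher by 0.38 in Mbnl2KO. Between the knockouts 2 were lower in Mbnl1KO by edgeR and 3 by DESeq2. The summed level of the list ranged from 280 to 331 CPM (WT), from 269 to 341 (Mbnl1KO) and from 317 to 382 (Mbnl2KO). Of 6 miRNAs of vessel wall and connective tissue, miR-126a-3p, the defining endothelial miRNA, was listed at 0, which need not mean absence, and 5 were tested. Between Mbnl1KO and WT, 0 of the 5 rose and 1 fell, miR-199a-3p, by 0.43 (edgeR, adjusted p = 0.0172). Without TMM its levels overlapped, at 635, 680 and 694 CPM in WT and 751, 597 and 499 in Mbnl1KO. The others were not called, with log2 fold changes of 0.27 for miR-143-3p, 0.17 for miR-145a-5p, -0.05 for miR-199a-5p and -0.10 for miR-214-3p, and between Mbnl2KO and WT, miR-143-3p rose as above. Between the knockouts miR-199a-3p was lower in Mbnl1KO, with a log2 fold change of -0.42 (edgeR, adjusted p = 0.0328). Without TMM its levels overlapped here too, with 572, 830 and 653 CPM in Mbnl2KO. The summed level of this list ranged from 6254 to 6623 CPM (WT), from 5937 to 8551 (Mbnl1KO) and from 7692 to 8689 (Mbnl2KO). Of 4 tested miRNAs of skeletal muscle, 2 rose and 1 fell between Mbnl1KO and WT. miR-206-3p, which is raised in regenerating muscle, changed by 1.93 on the log2 scale (edgeR, adjusted p = 1.82e-31), and miR-133b-3p, a near copy of miR-133a-3p whose reads may be shared, by 0.72 (edgeR, adjusted p = 0.0147). miR-1a-3p fell by 0.40 (edgeR, adjusted p = 0.0453). Its share of a library, without TMM, ranged from 69.7% to 71.3% in WT and from 61.4% to 68.6% in Mbnl1KO. DESeq2 called miR-206-3p and miR-1a-3p but not miR-133b-3p (adjusted p = 0.0515). Between Mbnl2KO and WT, 1 of these 4 rose, miR-206-3p, and between the knockouts 2 were higher in Mbnl1KO, to which DESeq2 added 1 that was lower. The summed level of the muscle list, mostly miR-1a-3p, was lower in each Mbnl1KO library than in each WT library, from 568635 to 729049 CPM against 796102 to 846731, and ranged from 694799 to 959045 in Mbnl2KO. The part of these cells and of the muscle programme in the level of miR-107-3p was not tested.

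The miRNAs whose levels most resembled each member over the 9 libraries were found by Pearson's r on log2 CPM among 309 miRNAs. For miR-107-3p they were miR-27b-3p (r = 0.960), miR-369-3p (r = 0.946) and miR-23a-3p (r = 0.925), with Spearman's rho of 0.717, 0.733 and 0.700. These points share the split between Mbnl1KO and the other libraries, which lies in miR-107-3p and in each of these miRNAs. miR-27b-3p ranged from 659 to 736 CPM (WT), from 1122 to 1295 (Mbnl1KO) and from 672 to 728 (Mbnl2KO). miR-369-3p, from the imprinted Dlk1-Dio3 region, had 19.1 to 24.2, 74.5 to 83.0 and 14.8 to 24.9 CPM in the same order. For miR-103-3p the most similar were miR-93-5p (r = 0.898), miR-320-3p (r = 0.814) and miR-29b-2-5p (r = 0.757). miR-93-5p was highest in Mbnl1KO replicate 1, at 606 CPM against 381 to 530 elsewhere, the library in which miR-103-3p was also highest. miR-107-3p and miR-103-3p themselves had an r of 0.391 over these libraries.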

How the data were processed

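Small RNA libraries were made by the authors from 200 ng of total RNA with a NEXTflex kit and sequenced on a NovaSeq. The authors deposited raw counts of reads per mature miRNA, with no normalization. For knockout muscle the methods describe collapsing of identical reads and alignment to miRBase precursors without mismatches, with reads around each mature miRNA summed. Whether this made the deposited table, and how reads matching several hairpins were divided, is not given in the sources used here. DESeq2 is named in the submitters' processing notes.

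Of 1966 entries, 1057 were at 0 in all libraries. Groups were taken from the labels. Nothing says that replicates of a group were reared or prepared apart, so p-values refer to the spread between these mice and libraries. The fits share that spread between miRNAs, so a p-value or interval does not measure the spread of 1 miRNA alone. Between Mbnl1KO and WT, miR-143-3p and miR-29a-3p had standard errors of 0.152 and 0.151. Their normalised counts in Mbnl1KO were 28159 ± 8125 and 19232 ± 1297 (SD). Counts of replicates differed beyond sampling noise (chi-square per degree of freedom 38.8 to 272). The 6 libraries of a comparison were fitted with edgeR 4.0.16 (R 4.3.3, limma 3.58.1): TMM, robust quasi-likelihood test, Benjamini-Hochberg adjustment over all tested miRNAs, mean normalised count above 10. Intervals use the fit's standard error. Per-library levels use TMM over 9 libraries. Log2 CPM for the correlations used a prior count of 2.

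In simulated counts for Mbnl1KO against WT (319 tested miRNAs), the test found 80% of 40 changes of log2 size 1 and 100% of 43 of log2 size 2, and 1.32% of its calls were false. The simulation gave all miRNAs the same dispersion, balanced rises with falls and held miR-1a-3p unchanged. The real counts need not follow these settings, so the rates may not hold for them. Alternatives were DESeq2 1.42.0 and its size factors, library totals with or without miR-1a-3p, other filters, all 9 libraries in 1 fit, a replicate block and each library left out. Named miRNAs were the members, the opposite strands, the group with AGCAGC, called members of the insulin list, the intronic metabolic list, marker lists and the 3 miRNAs most like each 3p member. Members and lists were chosen with earlier results of these data known. Sequences came from RefSeq. Figures were drawn with Python 3.11.15 and matplotlib 3.10.9.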

Additional observations from a re-analysis of the deposited data

How the results depend on the processing

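miR-107-3p was called in 14 of 14 alternatives both between Mbnl1KO and WT (log2 fold changes 1.30 to 1.88) and between the knockouts (1.34 to 1.92). Its value between Mbnl2KO and WT changed sign among the fits that left out a library (-0.12 to 0.16), and a mean count above 100 left it untested there. miR-103-3p between Mbnl1KO and WT was at 0.24 with library totals and at -0.32 to 0.042 with a library left out. Between the knockouts it was called at 0.50 with library totals and ranged from -0.056 to 0.28 with a library left out. Library totals moved the median of all miRNAs to 0.30 and 0.36 in these comparisons. The share of called miRNAs that were higher then went from 56.6% to 90.1% and from 61.4% to 93.5%, and between Mbnl2KO and WT from 58.8% to 71.4%. DESeq2's size factors gave 49.5% between the knockouts. A mean count above 100 left 70 called miRNAs between Mbnl1KO and WT and 10 between Mbnl2KO and WT. The latter count was 7 with library totals and 4 to 28 with a library left out (4 without WT replicate 2, 9 without WT replicate 3, 11 without Mbnl2KO replicate 1, 28 without Mbnl2KO replicate 3). The cause of these moves was not tested. Same-numbered libraries did not deviate together (r from -0.16 to 0.12). With the replicate block, miR-107-3p was at 1.51, -0.04 and 1.58 and miR-103-3p at -0.10, -0.24 and 0.17 between Mbnl1KO and WT, Mbnl2KO and WT, and the knockouts, with no call of a member changed, and 93, 21 and 77 miRNAs were called. miR-107-3p had 60 to 80 counts a library in WT and Mbnl2KO and 187 to 394 in Mbnl1KO, and the depth left miR-107-5p untested.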
